A study of Mus musculus with 8 samples.

Results

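The genes described here are the zinc finger genes of the mouse whose symbols begin with Zfp and a number, Zscan, Zkscan or Zbtb. They were taken by name from the protein-coding genes of a bulk RNA-Seq comparison of *Hdac3* KO and EV MCECs, which gave 172 members among the 8278 genes of the deposited table. MCECs are a mouse cardiac endothelial cell line. *Hdac3* encodes a histone deacetylase that works inside the NCoR and SMRT corepressor complexes. The 4 *Hdac3* KO libraries came from cells carrying the lentiCRISPR v2 vector with an *Hdac3* sgRNA, and the 4 EV libraries, whose genotype label reads CTL, came from cells transduced with the empty vector. Both groups therefore carry a lentiviral vector and were grown in DMEM with serum. The knockout cells were made as a stable line, and whether 1 clone or a pool is not stated. For in vitro work the study gives technical replicates as typical. It also says in general that its experiments were repeated independently and that numbers of biological samples are stated, with n = 4 in each group for this RNA-Seq. Whether the 4 libraries of a group came from separate cultures is not specified. The p-values below therefore measure only the spread between these libraries, which may be technical. The study used this comparison to look for growth signals that depend on *Hdac3* in cardiac endothelial cells.

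Zinc finger proteins of this kind read DNA with strings of C2H2 fingers, each of which folds around a zinc ion. Many carry a KRAB domain, which recruits Trim28 (KAP1) and through it the histone methyltransferase Setdb1 and HP1 proteins, and they are best known for silencing transposons and imprinted loci. Others carry a BTB domain, which dimerises and recruits corepressors such as NCoR and SMRT with histone deacetylases, or a SCAN domain, which mediates dimerisation. The name Zfp alone does not make a repressor. *Zfp36*, *Zfp36l1* and *Zfp36l2* bind AU-rich elements (AREs) in mRNA and speed mRNA decay, *Zfp598* encodes a ubiquitin ligase that acts on collided ribosomes, *Zfp207* acts at the mitotic spindle, and *Zfp143* is a transcriptional activator.

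Library totals ran from 15775327 to 22255684 reads, and 84.3% to 85.9% of each library fell on the table's genes. Every gene of the table has an adjusted p-value under 0.05 in the authors' own test of the same groups. The table is therefore a selection on this contrast, and counts of members past a threshold describe the listed genes and are no evidence that the family responds. Values are read counts normalised for library size and composition, and a gene was called at an adjusted p under 0.01 in edgeR's quasi-likelihood test. The correction for composition and the adjustment of p were both computed over the listed genes alone, of which 96.7% were called. The adjusted p-values take no account of the earlier selection, and the correction had few genes that were not called to rest on. *Hdac3* itself had 1934, 2067, 2055 and 2137 normalised reads in the EV libraries and 1551, 1458, 1489 and 1524 in the *Hdac3* KO libraries, a log2 fold change of -0.45 (SE 0.04, adjusted p = 1.0e-13), so its mRNA was reduced and not absent. The study checked the deletion in these cells at the protein level, by western blot, and the mRNA does not measure how complete it was. Of 15 endothelial marker genes, 7 were listed. *Pecam1* was at 0 in 2 EV libraries and at most 8.20 normalised reads in any library, *Kdr* and *Tek* were below 1 FPKM in both groups (FPKM, reads scaled to gene length and library total), and *Cd34* and *Eng* stood at 94.3 ± 0.861 and 21.5 ± 0.82 FPKM (SD, n = 4) in EV MCECs. The summed FPKM of the endothelial list fell between 121 and 123 in the EV libraries and 91.3 and 94.4 in the *Hdac3* KO libraries. *Cd34*, at 70.8 FPKM in *Hdac3* KO MCECs, made up most of it. Of the 7 listed genes 6 were lower and *Pecam1* was higher, a call that was lost in DESeq2. Of 8 fibroblast and mural markers 6 were listed, and their sum ran from 752 to 772 in the EV libraries and from 541 to 557 in the *Hdac3* KO libraries. *Tagln*, *Acta2*, *Pdgfrb*, *Pdgfra* and *Dcn* were lower and *Col1a1* higher. Of the cardiomyocyte markers only *Myl7* (1 of 8) was listed, at a sum of 4.83 to 6.54 in the EV and 1.55 to 1.84 in the *Hdac3* KO libraries, and of the blood markers only *Cd68* (1 of 6), at 5.36 to 5.89 and 11.1 to 12.5. These shifts move with the genotype, and their part in the results below was not tested. In bulk RNA, fewer cells that express a gene and less RNA of it per cell cannot be told apart.

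Of the 172 members, 115 were lower in *Hdac3* KO MCECs and 52 higher, and 5 did not pass the threshold. These counts correspond to 66.9% lower and 30.2% higher. Among all genes of the table, 96.7% were called, 49.6% lower and 47.1% higher. With library totals alone, without the correction for composition, 115 members were lower and 26 higher, and 39.3% of all called genes were higher in place of 48.7%. The median log2 fold change of the members was -0.32 (quartiles -0.49 and 0.19), and that of all 8278 genes was 0.06. In each *Hdac3* KO library 115 or 116 of the 172 members lay below the EV mean, and the members' median log2 ratio to the EV mean ran from -0.32 to -0.27. Groups did not overlap for 107 lower and 47 higher members, as for 46.6% and 44.4% of all genes in these directions. Most shifts were small. A log2 fold change below -1 was seen for 4 members (*Zfp14*, *Zfp704*, *Zfp395* and *Zbtb7c*), against 8.36% of all genes, and one above 1 also for 4 members (*Zfp750*, *Zfp365*, *Zfp112* and *Zfp566*), against 4.43% of all genes.

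**Figure D1:**
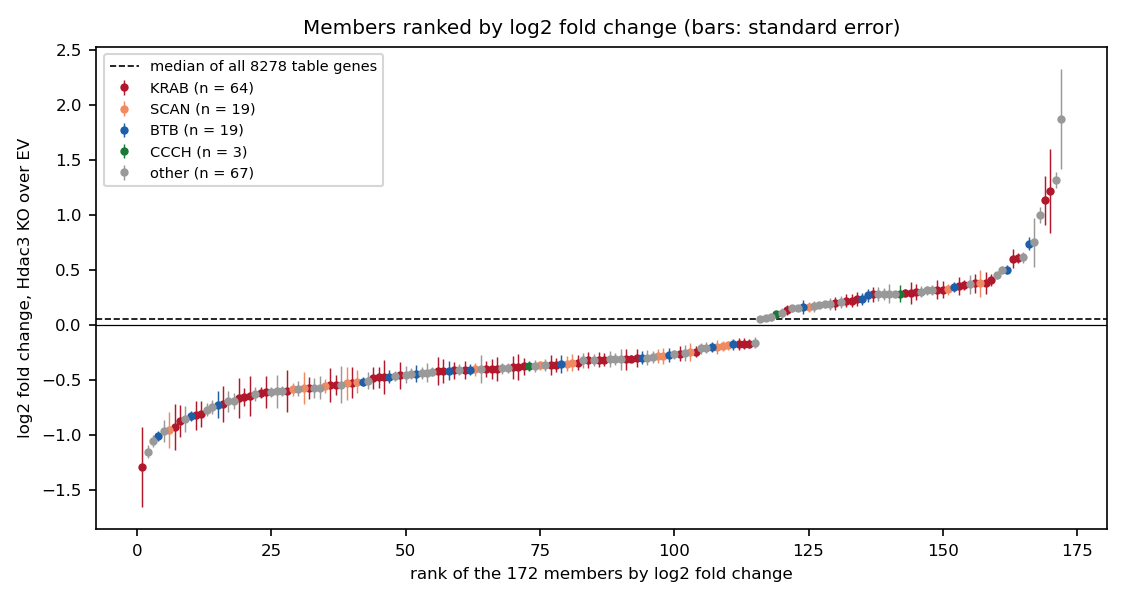
The 172 members ranked by log2 fold change of *Hdac3* KO over EV (vertical axis), with the standard error as a bar, colour for the domain group and a dashed line at the median of all 8278 genes. The line of points crosses from negative to positive after rank 115, and few members lie beyond 1 in either direction.

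The lean towards lower values ran with the expression level. The members were split into 4 sets of 43 by mean normalised count, and the protein-coding genes of the table that are no members were counted over the same count ranges. In the lowest set 36 of 43 members (83.7%) were lower, against 67.3% of 1224 other genes. In the second set 31 members (72.1%) were lower, against 68.0% of 835 genes. In the third set 27 (62.8%) were lower, against 58.5% of 1289 genes. In the highest set 21 (48.8%) were lower and 18 higher, against 39.5% lower of 3938 genes. The median log2 fold change went from -0.53 in the lowest set to 0.05 in the highest, and in the other genes from -0.59 to 0.14. Members were expressed at a lower level than other listed genes, with a median of 374 against 868 normalised reads. In each of the 4 ranges the share of lower members was above that of the other genes. The differences within each range, and the part of the expression level in the overall counts, were not tested.

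Genes that code for zinc finger proteins by this naming rule numbered 465 in the GENCODE annotation, so 37.0% of them were listed. The share is given by domain group, which was assigned with sequence profiles of the KRAB, SCAN and BTB domains run on the translated transcripts. Each gene stands in 1 group. Named members with both a KRAB and a SCAN domain (*Zfp110*, *Zfp445*, *Zfp446*, *Zkscan1* and *Zkscan3*) were placed with the SCAN genes, so the KRAB group leaves such genes out. Among KRAB genes 64 of 235 were listed (27.2%), among SCAN genes 19 of 43 (44.2%), among BTB genes 19 of 42 (45.2%), and among the remaining genes 67 of 140 (47.9%). Of 4 genes with CCCH fingers (the *Zfp36* type) 3 were listed, and 1 gene without any zinc finger was not. Expression of genes that were not listed was not analysed here. Finger numbers overlapped between the groups. KRAB members had a median of 12 C2H2 fingers (range 5 to 23), SCAN members 6 (3 to 14), BTB members 4 (1 to 12), and the remaining members 7 (0 to 36). KRAB members were the least expressed, with a median of 2.86 FPKM against 4.89 in SCAN members, 4.99 in BTB members and 7.61 in the remaining members.

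KRAB members, without those that also carry a SCAN domain, were lower in 44 cases and higher in 20 (median log2 fold change -0.36). With library totals alone they were lower in 44 and higher in 9. Beside their 68.8% lower stand 49.6% of the whole table and 68.0% of the other protein-coding genes in the second count range, in which the KRAB members' median of 207 reads falls. The count depends on how the domain is defined and on where genes with both domains are placed. A strict letter pattern for the KRAB A box found 29 members, of which 24 were lower and 5 higher (median -0.40), and a looser pattern found 53, with 40 lower and 13 higher (median -0.38). The looser pattern counted *Zfp110* and *Zfp445* as KRAB genes, whereas the profiles placed them in the SCAN group. SCAN members were lower in 16 of 19 cases (median -0.35), BTB members in 13 of 19 with 5 higher (median -0.30), and the remaining members in 41 of 67 with 22 higher (median -0.31). With library totals alone 1 SCAN member, 3 BTB members and 13 of the remaining members were higher. The 4 domain groups with more than 3 members thus had medians within 0.06 of each other on the log2 scale, and each median lay below that of the table. Members with 11 or more fingers (46 of 65 lower, median -0.37), with 6 to 10 (36 of 52, -0.37) and with 1 to 5 (29 of 46, -0.23) leaned the same way, whereas of the 9 members in which no C2H2 finger was recognised 4 were lower and 5 higher (median 0.10).

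**Figure D2:**
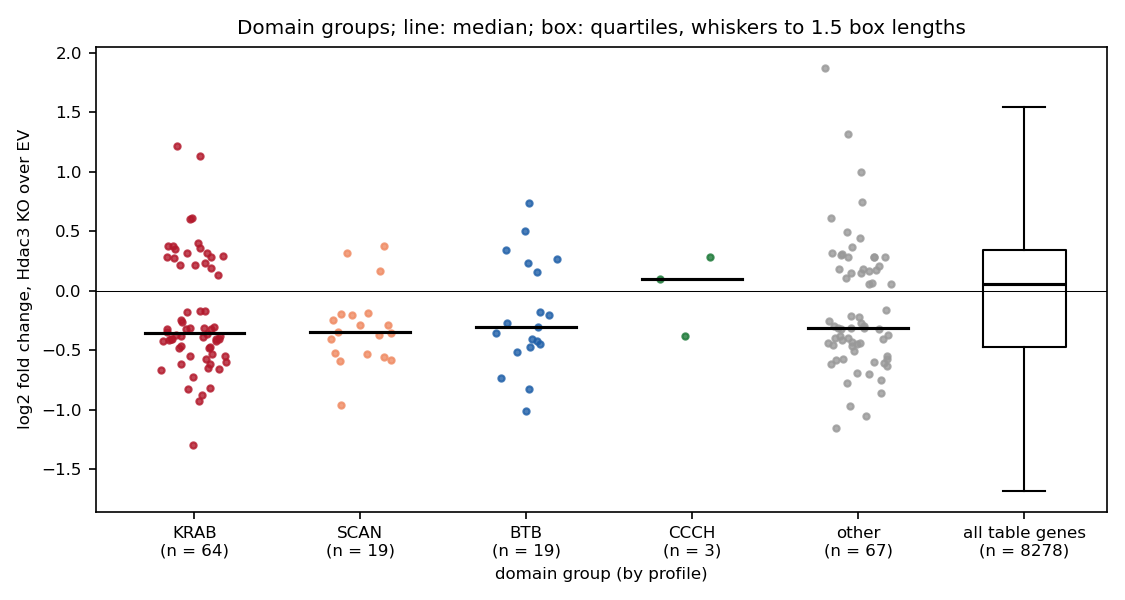
Log2 fold change of *Hdac3* KO over EV for each member (points) by domain group, with the group's median as a line, beside a box of all 8278 genes. The medians of KRAB, SCAN, BTB and remaining members are -0.36, -0.35, -0.30 and -0.31, and the box of all genes has its median at 0.06.

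Among members with at least 100 normalised reads in the higher group, the 4 that fell most were not KRAB genes. *Zfp704* (chr3:9427011-9610085, mm10) and *Zfp395* (chr14:65358676-65398930) encode related transcription factors with 1 recognised C2H2 finger each. *Zfp704* had 595, 646, 625 and 604 normalised reads in the EV libraries and 286, 279.6, 264 and 281 in the *Hdac3* KO libraries. This is a log2 fold change of -1.15 (SE 0.06, adjusted p = 6.0e-19), with no overlap between the groups. An annotated transcript on the other strand covers 16.6% of its exons, and whether reads were counted by strand is not stated. *Zfp395*, for which no such overlap is annotated, had 881, 931, 919 and 869.6 reads in the EV libraries and 483, 423, 439 and 392 in the *Hdac3* KO libraries. Its log2 fold change was -1.05 (SE 0.05, adjusted p = 6.6e-19). The BTB gene *Zbtb7c* fell by about as much, from 1028, 969, 1000.4 and 958 reads to 496, 487, 495 and 479.7 (-1.01, SE 0.05, adjusted p = 2.7e-20). All 4 *Hdac3* KO libraries lay within 17 reads of each other and below every EV library.

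*Zfp185* encodes a LIM domain protein of the actin cytoskeleton, in which no C2H2 finger was recognised. It had 227, 193, 240.2 and 226 reads in the EV libraries and 124, 99.3, 102 and 131 in the *Hdac3* KO libraries (-0.96, SE 0.10). *Zfp651*, a member with a BTB domain by profile, fell from 951 ± 21.1 to 537 ± 32.2 reads (SD, n = 4, log2 fold change -0.83, SE 0.05). *Zfp523* fell from 657 ± 45.2 to 385 ± 21.7 reads (-0.77, SE 0.06). The remaining genes among the 10 lowest were weakly expressed. *Zfp953* (-0.88, SE 0.14), *Zfp839* (-0.86, SE 0.12), *Zfp949* (-0.82, SE 0.13) and *Zfp760* (-0.81, SE 0.12) stood between 95.1 and 148 reads in the EV libraries and between 45.9 and 88.1 in the *Hdac3* KO libraries. *Zfp953*, *Zfp949* and *Zfp760* are KRAB genes. The EV and *Hdac3* KO libraries of the 10 genes did not overlap, which the choice of the 10 required.

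The 10 highest members, chosen by the same rule, held 3 KRAB and 2 BTB genes. *Zfp365* (chr10:67886103-67912662), which acts in genome stability and in neurons, had 148, 148, 166 and 157 reads in the EV libraries and 391, 393, 386 and 376 in the *Hdac3* KO libraries. Its log2 fold change was 1.32 (SE 0.07, adjusted p = 1.2e-17), and the 2 groups stood more than 200 reads apart. The paralogues *Zfp280c* and *Zfp280b* rose together. *Zfp280c* had 190.2, 234, 202 and 199.5 reads in the EV libraries and 383, 438, 419 and 407 in the *Hdac3* KO libraries (0.999, SE 0.07, adjusted p = 1.7e-14). *Zfp280b* had 593, 522, 544 and 540.3 and 839, 819, 812 and 890.3 (0.61, SE 0.05, adjusted p = 2.2e-13). Their longest transcripts share under 1% of their 50-base words with any other gene.

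*Zbtb18*, a transcriptional repressor known from neurons and muscle, had 286, 316, 307 and 301 reads in the EV libraries and 504, 534, 499 and 482 in the *Hdac3* KO libraries. This gave the highest fold change of a BTB member (0.74, SE 0.06, adjusted p = 3.9e-13). *Zfp131*, which has a BTB domain by profile, rose from 975 ± 39.95 to 1377 ± 56.8 reads (SD, n = 4, 0.50, SE 0.04). The KRAB gene *Zfp568*, known in the mouse for repressing a placental promoter of *Igf2*, had 629.6, 717, 683 and 682 reads in the EV libraries and 1025, 1082, 1000.0 and 1028 in the *Hdac3* KO libraries (0.61, SE 0.05, adjusted p = 2.5e-14). *Igf2* is not among the listed genes. The KRAB genes *Zfp850* (0.60, SE 0.08) and *Zfp948* (0.40, SE 0.06) also rose. 2 of the 10 are better known for work on RNA. *Zfp598* rose from 1719.9 ± 25.3 to 2427 ± 61.1 reads (0.50, SE 0.03), and *Zfp106*, an RNA-binding protein needed by motor neurons and muscle, rose from 4031 ± 131 to 5496 ± 169 (0.45, SE 0.03), although a transcript on the other strand covers 26.1% of its exons.

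**Figure D3:**
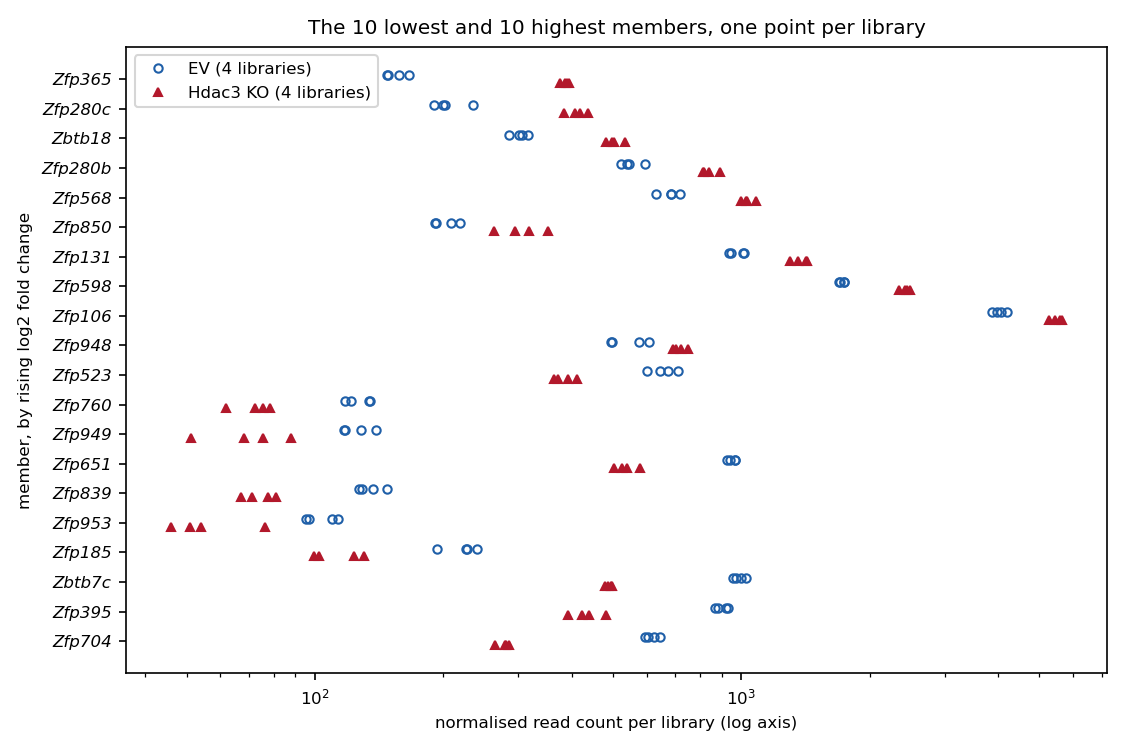
Normalised read count (horizontal log axis) of the 10 lowest and the 10 highest members by log2 fold change, with 1 circle per EV library and 1 triangle per *Hdac3* KO library. In each row the 4 triangles lie to 1 side of the 4 circles, as the choice of genes required, with *Zfp704* lowest and *Zfp365* highest.

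Some of the outermost fold changes belonged to genes with few reads. *Zfp750*, an epidermal transcription factor, was named because it had the highest fold change and stood at 1.18, 1.11, 3.12 and 7.95 reads in the EV libraries and 17.8, 10.02, 16.9 and 10.3 in the *Hdac3* KO libraries (1.87, SE 0.45). *Zfp14* stood at 12.99, 16.6, 16.6 and 13.2 and 7.33, 9.11, 4.69 and 2.80 (-1.30, SE 0.36). *Zfp112* stood at 2.36, 11.1, 7.28 and 3.53 and 14.7, 10.9, 15.9 and 14.9 (1.22, SE 0.38), and its groups overlapped. At this depth these 3 fold changes carry standard errors of 0.36 to 0.45.

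The most abundant members by FPKM were *Zfp91*, *Zfp207*, *Zfp36l2*, *Zfp706* and *Zfp664*. *Zfp91*, a ubiquitin ligase gene of the NF-kappaB pathway, stood at 76.1 ± 1.47 FPKM in EV and 72.98 ± 1.42 in *Hdac3* KO MCECs (SD, n = 4), a log2 fold change in normalised counts of 0.06 that did not pass the threshold (SE 0.03, adjusted p = 0.03). *Zfp207* stood at 71.3 ± 2.56 and 79.9 ± 1.84 FPKM and rose (0.28, SE 0.03, adjusted p = 4.6e-11). *Zfp36l2* stood at 71.04 ± 1.20 and 70.04 ± 2.38 FPKM (0.10, SE 0.03), and *Zfp706* at 55.8 ± 1.32 and 58.1 ± 1.20 (0.18, SE 0.03). *Zfp664* stood at 40.4 ± 1.30 and 38.7 ± 0.414 FPKM and did not pass (0.05, SE 0.03, adjusted p = 0.077). FPKM uses the library total alone, whereas the fold changes also carry a correction for composition, which raises every log2 fold change by about 0.12. With library totals alone the values of *Zfp91*, *Zfp664* and *Zfp36l2* turn to -0.0593, -0.0639 and -0.0208, so no direction is given for these genes, and *Zfp706* does not pass (0.06, adjusted p = 0.036).

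Several members encode well studied regulators, and a list of 41 such genes was set out for this work, of which 26 were listed, 14 lower and 11 higher, beside 49.6% lower and 47.1% higher in the whole table. The counts were 14 lower and 5 higher with library totals alone. The 11 include *Zfp36l2*, for which no direction is given above. Among the BTB proteins that bind methylated DNA, all 3 were lower. *Zbtb38* had 953, 929.7, 921 and 919.9 reads in the EV libraries and 632, 665, 644 and 657 in the *Hdac3* KO libraries (-0.52, SE 0.04, adjusted p = 5.4e-13). *Zbtb4* had 949.8, 1040.2, 1050.3 and 1029 and 812, 799.5, 746 and 717 (-0.41, SE 0.05, adjusted p = 7.4e-10). *Zbtb33* (Kaiso) had 541, 537, 594 and 516 and 464, 397, 445 and 469 (-0.30, SE 0.06, adjusted p = 2.6e-05). The *Hdac3* KO libraries of all 3 genes lay below their EV libraries without overlap. *Zbtb14* was lower (-0.27, SE 0.06), and *Zbtb11* (0.27, SE 0.06), which did not pass with library totals alone, and *Zbtb7b* (0.34, SE 0.04), which directs the CD4 T cell lineage in the thymus, were higher.

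The progenitor regulators *Zfp521* and *Zfp462* were both lower. *Zfp521* had 219, 259.8, 249 and 261 reads in the EV libraries and 154, 127, 154 and 177 in the *Hdac3* KO libraries (-0.70, SE 0.09). *Zfp462* had 884, 967, 920.3 and 919.9 and 561, 642, 574 and 636 (-0.61, SE 0.05). *Zfp217*, whose product associates with CoREST and CtBP, was lower by a small amount (-0.31, SE 0.06), as were *Zfp703* (-0.29, SE 0.06) and *Zfp335* (-0.32, SE 0.07), which overlaps genes on the other strand along 28.3% of its exons. The paralogues *Zfp281* and *Zfp148*, which bind GC-rich promoter elements, went opposite ways, at -0.16 (SE 0.05) and 0.15 (SE 0.03). *Zfp281* lost the threshold without EV replicate 1 or *Hdac3* KO replicate 2, and *Zfp148* with library totals alone. *Zfp143* (0.28, SE 0.06) and *Zfp384* (0.18, SE 0.04) were higher, and neither passed with library totals alone. *Zfp384* shares 16.8% of its 50-base words with another gene model. *Zkscan3*, a repressor of autophagy genes, and *Zscan21* were lower (-0.41, SE 0.05, and -0.56, SE 0.06). *Zkscan3* shares 12.5% of its 50-base words with *Zkscan4*, so some of its reads may be split between these genes.

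Zinc finger genes arose largely by tandem duplication, and many lie in clusters. Members whose neighbouring starts lay within 1 Mb formed 8 runs of 4 or more, with 46 members. Of these 36 were lower and 10 higher (median log2 fold change -0.38), against 79 lower and 42 higher of the 126 members outside runs (median -0.30). These counts with library totals alone were 36 lower and 5 higher in runs, and 79 lower and 21 higher outside. These compare with 49.6% lower and 47.1% higher over all genes. Members in runs had a median of 244 normalised reads and those outside 437, and in the 2 lowest count ranges 67.3% and 68.0% of the other protein-coding genes were lower. In the third range, in which the median of 437 falls, 58.5% of the other protein-coding genes were lower. The part of the expression level in the gap between members in and outside runs was not tested. In 4 runs all members were lower. The longest of these lies on chromosome 13 between positions 67194506 and 67729119 (mm10), a stretch with 17 genes of this naming rule, and its 8 listed members, all KRAB genes by profile, had log2 fold changes from -0.88 to -0.32. They were *Zfp455* (-0.67), *Zfp458* (-0.60), *Zfp595* (-0.53), *Zfp953* (-0.88), *Zfp87* (-0.40), *Zfp748* (-0.38), *Zfp738* (-0.39) and *Zfp65* (-0.32). Reads were few. *Zfp455* had 53.2, 50.9, 53.04 and 49.4 in the EV libraries and 25.1, 30.96, 29.1 and 43.9 in the *Hdac3* KO libraries, and *Zfp65* had 309, 326, 276 and 294 and 216, 246, 248 and 251. *Zfp458* was the 1 member whose groups overlapped, and it lost the threshold without EV replicate 3, *Hdac3* KO replicate 2 or *Hdac3* KO replicate 4 (adjusted p = 0.015, 0.026 and 0.013). The genes of this cluster resemble each other, and 7 of the 8 share between 5% and 11% of their 50-base words with another gene. For *Zfp595*, *Zfp953* and *Zfp87* that gene is a gene model that overlaps them on the same strand. Part of the reads of these members may therefore be split between copies or gene models.

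The other 3 runs with all members lower were 6 genes on chromosome 7 at 12478293 to 12984340 (*Zfp606*, *Zfp110*, *Zfp128*, *Zscan22*, *Zfp324* and *Zfp446*, median -0.53), 4 genes on chromosome 7 at 4983483 to 5053722 (*Zfp579*, *Zfp524*, *Zfp865* and *Zfp580*, median -0.36), and 5 genes on chromosome 5 at 138085084 to 138619761 (*Zkscan1*, *Zscan21*, *Zfp113*, *Zfp157* and *Zfp68*, median -0.37). Of these, *Zfp606* lost the threshold without EV replicate 1, *Hdac3* KO replicate 1 or *Hdac3* KO replicate 4, *Zfp446* without EV replicate 4, and *Zfp524* without EV replicate 3 or *Hdac3* KO replicate 1. *Zfp524* and *Zfp865* share 46.0% and 19.1% of their 50-base words with overlapping gene models, so the values of these members are uncertain. A run on chromosome 7 at 29768552 to 30107622 held opposite changes side by side. There *Zfp84* (-0.41, SE 0.08), *Zfp14* (-1.30, SE 0.36) and *Zfp260* (-0.45, SE 0.05) were lower, and *Zfp568* (0.61, SE 0.05) and *Zfp566* (1.13, SE 0.22) higher. *Zfp566* stood at 17.7, 18.8, 28.1 and 16.8 reads in the EV libraries and 47.1, 50.1, 29.99 and 51.3 in the *Hdac3* KO libraries, and shares 15.7% of its 50-base words with an overlapping gene model. The runs on chromosome 15 (2 lower, 2 higher) and chromosome 17 (5 and 5, and 3 and 1) were also mixed. With library totals alone *Zfp7* in the run on chromosome 15 and *Zfp871*, *Zfp81*, *Zfp955a* and *Zfp870* in the run of 10 on chromosome 17 no longer passed, which left 5 lower and 1 higher in the latter. Among the lower members *Zfp563* lost the threshold without EV replicate 1, *Hdac3* KO replicate 1 or *Hdac3* KO replicate 2, *Zbtb22* without EV replicate 4 or *Hdac3* KO replicate 4, and *Zfp251* without *Hdac3* KO replicate 4. Leaving out 1 library also cost *Zfp871* its call (EV replicate 1 or 4, or *Hdac3* KO replicate 4), and *Zfp81* (EV replicate 4 or *Hdac3* KO replicate 2). *Zfp414* and *Zfp7* share 25% and 17.2% of their words with another gene. In the run of 10 on chromosome 17, *Zfp955a* (0.28) and *Zfp955b* (0.37) share 52.0% and 32.2% of their words, mostly with each other, and their values are uncertain. Neighbours are not independent members, and a distance of 250 kb in place of 1 Mb left 6 runs, of which 3 were all lower.

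**Figure D4:**
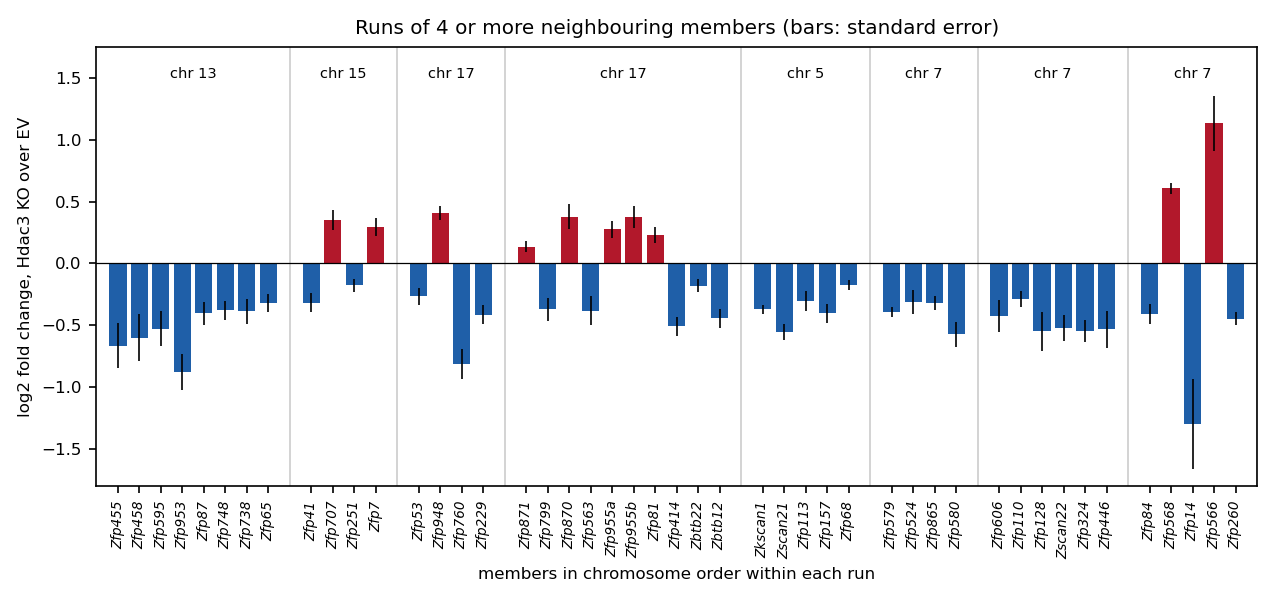
Log2 fold change of *Hdac3* KO over EV (vertical axis) for the members of the 8 runs in chromosome order (horizontal axis, no distances), with the standard error as a line, blue for lower and red for higher. The run on chromosome 13, that on chromosome 5 and 2 of those on chromosome 7 are blue throughout, and the last run on chromosome 7 holds *Zfp14* at -1.30 beside *Zfp566* at 1.13.

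The promoters of the run on chromosome 13 carry a common stretch of letters. Of its 8 members 7 matched a promoter in the RefSeq table, which gives 250 bases before and 50 after each start in build GRCm38.p6. All 7 held TGTAGTC on the strand of the gene, and in all 7 it formed part of the longer TGGGANNTGTAGTC, where N is any base. The 7 sequences are shown 5′ to 3′ on the strand of the gene, with the shorter letters in capitals, because they were found in every promoter of this run. They lie in order at chr13:67194432-67194486 (plus strand) and at chr13:67269136-67269190, chr13:67332575-67332629, chr13:67360611-67360665, chr13:67553142-67553196, chr13:67683532-67683586 and chr13:67729155-67729209 (minus strand).
Zfp455: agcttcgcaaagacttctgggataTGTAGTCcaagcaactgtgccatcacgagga
Zfp458: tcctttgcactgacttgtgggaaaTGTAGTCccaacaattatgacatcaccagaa
Zfp595: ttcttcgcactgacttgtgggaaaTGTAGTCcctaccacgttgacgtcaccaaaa
Zfp953: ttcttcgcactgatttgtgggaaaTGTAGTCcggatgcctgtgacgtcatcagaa
Zfp748: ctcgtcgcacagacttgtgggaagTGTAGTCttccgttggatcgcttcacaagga
Zfp738: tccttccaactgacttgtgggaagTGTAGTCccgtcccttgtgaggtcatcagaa
Zfp65: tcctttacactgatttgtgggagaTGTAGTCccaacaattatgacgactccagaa

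Outside this run the same letters were found in members that moved in either direction. In the mixed run on chromosome 7 they were in 3 of 4 matched promoters, *Zfp84* on the strand of the gene and *Zfp14* and *Zfp566* on the other strand, at chr7:29768511-29768565 (plus strand), chr7:30051381-30051435 and chr7:30090557-30090611 (minus strand). Among the other all-lower runs, the shorter letters were in 2 of 5 matched promoters of the 6 genes on chromosome 7. They were in 0 of 2 for the 4 genes there and in 0 of 5 on chromosome 5. In the mixed runs on chromosome 17 they were in 1 of 4 and 2 of 9. The promoter starts of *Zfp14* and *Zfp738* lay 6662 and 3559 bases from the gene starts in the count data. *Zfp84*, *Zfp14* and *Zfp566* are shown because *Zfp84* and *Zfp14* were lower and *Zfp566* higher.
Zfp84: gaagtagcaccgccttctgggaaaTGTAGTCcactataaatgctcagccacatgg
Zfp14: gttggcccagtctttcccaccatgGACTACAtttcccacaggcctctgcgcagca
Zfp566: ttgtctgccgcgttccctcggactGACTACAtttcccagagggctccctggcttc

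On either strand TGGGANNTGTAGTC (GACTACANNTCCCA on the other) was present in 235 of the 32851 promoters of the RefSeq table, 0.715%, and the shorter TGTAGTC, which every such match includes, in 3.23%. The longer letters were in 14 of the 53 matched promoters of KRAB members (26.4%), in 7 of 46 when the run on chromosome 13 was left out (15.2%), and in 17 of the 151 matched promoters of annotated KRAB genes that were not listed (11.3%). Among the KRAB members the shorter letters were in 18 of 53 promoters (34.0%), and in 11 of 46 without the run on chromosome 13 (23.9%). They were in 14 of 39 promoters of KRAB members called lower and in 4 of 14 of those called higher. Those 14 of 39 include all 7 promoters of the run, from which the letters were picked, so the lower and higher shares cannot be compared. The higher KRAB members had a promoter for only 14 of 20 genes. The letters were thus found in listed and unlisted KRAB genes, though most KRAB promoters lacked them, and they were chosen after the sequences of the run had been seen. Their reverse complement resembles the element known for *Zfp143*. No binding was measured here, and a match in a sequence is a description only.

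The partners through which KRAB proteins act were examined next. Of 19 genes of the KRAB corepressor path 13 were listed, 10 higher and 3 lower (median log2 fold change 0.25), or 8 higher and 3 lower with library totals alone, where *Dnmt1* and *Cbx1* no longer passed. *Trim28*, the hub of the path, had 7478, 7735, 7690.3 and 7579 reads in the EV libraries and 8895, 8902, 8745 and 8839.6 in the *Hdac3* KO libraries (0.21, SE 0.02, adjusted p = 1.0e-09). The HP1 genes *Cbx3* (0.48, SE 0.03), *Cbx5* (0.31, SE 0.03) and *Cbx1* (0.19, SE 0.03) were higher, as were *Morc2a* (0.58, SE 0.03) and *Morc3* (0.43, SE 0.04), which compact chromatin, and *Pphln1*, *Uhrf1* and *Dnmt1*. The remodellers *Chd4* and *Chd3*, subunits of NuRD, went opposite ways, at 0.44 (SE 0.03) and -0.38 (SE 0.04). *Dnmt3a*, a de novo DNA methyltransferase, fell from 1664 ± 84.6 to 1160.0 ± 36.5 reads (SD, n = 4, -0.52, SE 0.04), and *Atf7ip*, the partner of Setdb1, was lower (-0.37, SE 0.04). In the range of mean counts that the listed genes of this path span, 62.0% of 2705 other protein-coding genes were higher and 33.5% lower (median 0.17).

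Of 13 corepressors of BTB proteins 10 were listed, 7 higher and 3 lower (median 0.30), or 6 higher and 3 lower with library totals alone. Over their range of mean counts 50.9% of 4762 other protein-coding genes were higher. *Tbl1xr1* and *Tbl1x*, subunits of the NCoR and SMRT complexes in which Hdac3 works, rose most. *Tbl1xr1* had 1200.2, 1255, 1195 and 1116 reads in the EV libraries and 2256, 2210.0, 2166 and 2166 in the *Hdac3* KO libraries (0.89, SE 0.04, adjusted p = 1.1e-21). *Tbl1x* had 3930.1, 3921, 3837 and 3819.9 and 5675, 5645, 5495 and 5551 (0.53, SE 0.03, adjusted p = 4.2e-19). *Hdac1* (0.39, SE 0.03), *Rcor1* (0.32, SE 0.03), *Cul3* (0.30, SE 0.04) and *Bcor* (0.30, SE 0.05) were higher, and *Bcorl1* (-0.46, SE 0.06), *Sin3a* (-0.20, SE 0.04) and *Gps2* (-0.17, SE 0.05) lower. *Hdac2* passed at 0.11, with groups that overlapped, and its direction turned with library totals alone. It also lost the threshold without EV replicate 2 or 3, or without *Hdac3* KO replicate 2, 3 or 4. *Gps2* lost it in DESeq2 (adjusted p = 0.0102) and without EV replicate 3, *Hdac3* KO replicate 2 or *Hdac3* KO replicate 4 (adjusted p = 0.0189, 0.016 and 0.01005 in edgeR).

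*Zfp445* protects the methylation of imprinted loci together with *Zfp57*, which was not listed. *Zfp445* had 1153, 1091, 1105 and 1090.3 reads in the EV libraries and 976, 1009, 924 and 987 in the *Hdac3* KO libraries, a small decrease (-0.19, SE 0.04, adjusted p = 7.5e-05). Of 22 imprinted genes 7 were listed and showed no common direction, with 3 lower and 4 higher. Over their range of mean counts 49.9% of 7054 other protein-coding genes were lower and 46.5% higher. *Plagl1* (-0.96, SE 0.18), *Peg10* (-0.78, SE 0.03) and its neighbour *Sgce* (-0.70, SE 0.04) were lower, and *Kcnq1ot1* (0.90, SE 0.20), *Mcts2* (0.47, SE 0.06), *Peg3* (0.25, SE 0.03) and *Igf2r* (0.15, SE 0.04) higher, of which *Igf2r* did not pass with library totals alone.

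The *Zfp36* family differed among themselves. *Zfp36l1* had 911, 936, 988 and 973 reads in the EV libraries and 780.2, 761, 697 and 696 in the *Hdac3* KO libraries (-0.38, SE 0.05, adjusted p = 4.0e-09), but a transcript on the other strand covers 55.9% of its exons. *Zfp36* had 243, 209, 233 and 244 and 314, 275, 252 and 293 (0.28, SE 0.08, adjusted p = 0.0013) and did not pass with library totals alone, and *Zfp36l2* is described above. Of 14 mRNAs with AREs that the family is known to target 8 were listed, 7 higher and 1 lower (median 0.98). Over their range of mean counts 42.8% of 5416 other protein-coding genes were higher, and 47.1% of the whole table. The chemokine gene *Ccl2* had 309, 301, 311 and 320.5 reads in the EV libraries and 783, 842, 903 and 832 in the *Hdac3* KO libraries (1.44, SE 0.06, adjusted p = 3.0e-22). *Ptgs2*, which encodes a prostaglandin synthase, had 320.1, 309.5, 294 and 336 and 819, 818, 814 and 896 (1.41, SE 0.06), and *Vegfa* had 1545, 1527, 1605 and 1569 and 3625, 3580.5, 3549 and 3491 (1.19, SE 0.03). In these 3 genes the lowest *Hdac3* KO library had more than 2 times the reads of the highest EV library. *Myc* (0.98, SE 0.04), *Plk3* (0.97, SE 0.08), *Dusp1* (0.66, SE 0.06) and *Ier3* (0.65, SE 0.04) were also higher, and *Fos* fell from 134 ± 14.6 to 59.02 ± 8.76 reads (-1.18, SE 0.13).

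**Figure D5:**
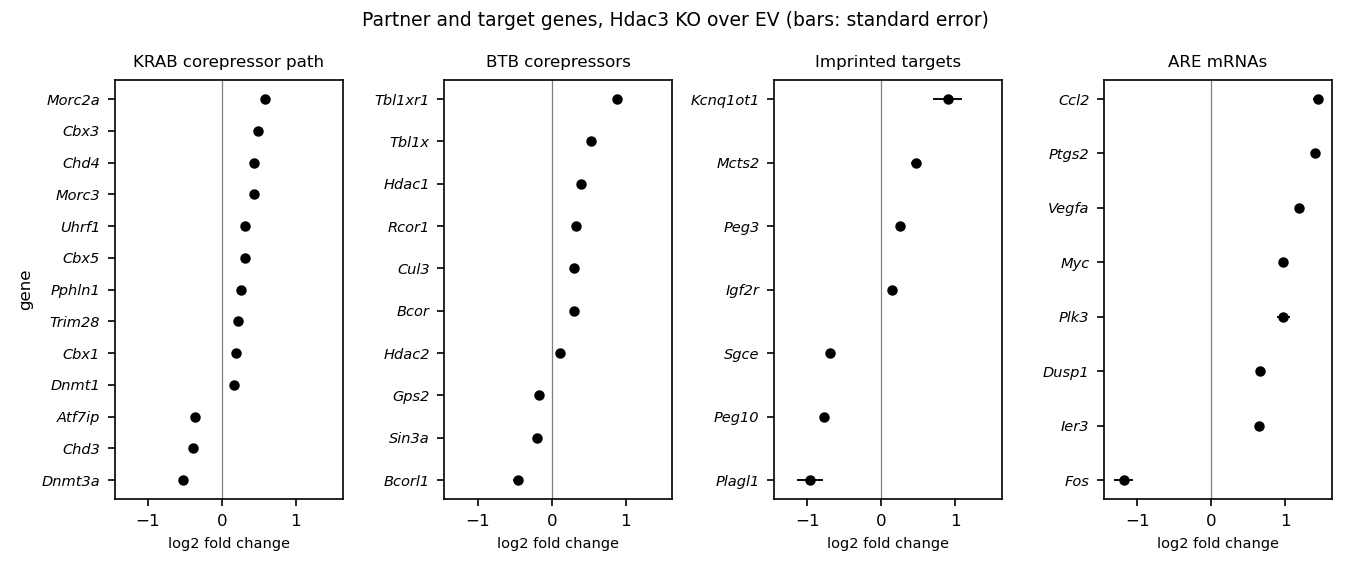
Log2 fold change of *Hdac3* KO over EV (horizontal axis) with its standard error for the listed genes of the KRAB corepressor path, the BTB corepressors, the imprinted targets of *Zfp57* and *Zfp445*, and the ARE mRNAs of the *Zfp36* family. In the KRAB path 10 of 13 points lie above 0, and in the ARE list 7 of 8, with *Fos* at -1.18.

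The study went on to follow miR-129-5p in these cells. Its mature sequence from RefSeq is shown with the seed, bases 2 to 8, in capitals, since seed matches in member mRNAs were counted.
miR-129-5p: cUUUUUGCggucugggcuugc

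The matching site, GCAAAAA, was searched in the longest annotated 3′ UTR of each gene. At least 1 site was found in 31 of 172 members (18.02%) and in 948 of 7922 listed protein-coding genes with a 3′ UTR (11.97%). Members with a site were lower in 24 cases and higher in 6 (median -0.38), and the 141 members without one were lower in 91 and higher in 46 (median -0.31). Among all listed protein-coding genes, 446 with a site were lower and 464 higher (median 0.10), and 3480 without one were lower and 3266 higher (median 0.04). The UTRs of members with a site were longer, with a median of 3266 bases against 1832. Among all listed protein-coding genes these medians were 2614 and 1100 bases, so the members had longer UTRs in both classes. The part of length in these counts and shares was not tested. The lowest members with a site and more than 100 reads were *Zfp704* and *Zfp395*, and *Zbtb4* carries 3 sites. The most sites, 5, were in *Zbtb1*, which was lower by less (-0.20, SE 0.04) and has a 3′ UTR of 9567 bases. The sites of *Zfp704*, *Zfp395* and *Zbtb4* are shown with the site in capitals, on the strand of the mRNA, at chr3:9438647-9438676 for *Zfp704* (minus strand), chr14:65398695-65398724 for *Zfp395* (plus strand), and chr11:69781269-69781298, chr11:69783493-69783522 and chr11:69783976-69784005 for *Zbtb4* (plus strand).
Zfp704: aacaaaaacaaaaacacaGCAAAAAatcag
Zfp395: gttctgactttacctgggGCAAAAAcaaac
Zbtb4, the first: tggcactttagaaaaactGCAAAAAataca
Zbtb4, the second: tacagcccaaggacatagGCAAAAAataaa
Zbtb4, the third: ctaaaggtggtaatcattGCAAAAAataaa

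Sites were also present in members that were higher, among them *Zfp106* with 2 sites (0.45) and *Zfp148* with 1 (0.15). A site in a sequence is no measure of repression, and levels of the miRNA were not analysed here.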

How the data were processed

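Total RNA of 4 EV and 4 *Hdac3* KO MCEC samples was sequenced by a provider, and alignment by the authors used TopHat2 and Bowtie2 (build mm10). Their methods name both the Cufflinks suite and DESeq2 for differential expression, and lumi for the count matrix. Which program counted these reads per gene, its annotation and its use of strand are not given in the sources used here. Read counts were deposited without normalisation. FPKM was computed by the authors from those counts, the gene length and the library total. The deposited mean signal of each group (counts scaled by size factors), log2 fold change and p-values are the authors' own comparison, and none of them is reported here. The number of columns of other samples is 0.

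Groups and replicate numbers came from the sample titles. Library totals were recovered from counts, lengths and FPKM values. All 8278 genes were fitted together with edgeR 4.0.16 (R 4.3.3, TMM factors, quasi-likelihood test, Benjamini-Hochberg adjustment, threshold 0.01, the study's own), with no filter. The study reports far fewer changed genes for this comparison than were called here, and what further limit it used, if any, is not stated. The SE was derived from the quasi-likelihood F statistic. For each gene that is named, an exact permutation p (two-sided, 70 arrangements of the 8 libraries, at least 0.0286) was also computed. The fit was tested on simulated data, and the outcome is not reported here. DESeq2 1.42.0, its size factors, library totals alone, a mean of at least 10 counts, a replicate block, other thresholds and leaving out each library were tried.

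Members, lists and tests were chosen with earlier results of these data known. Named members were the 10 called members with the highest and the 10 with the lowest fold change, chosen where groups do not overlap and with at least 100 normalised reads in the higher group, the 5 highest by FPKM, a list of regulators, members of runs, and partner lists. *Zfp750* and *Zfp112* were named after their values were seen. Proteins were translated from GENCODE M21 transcripts. KRAB, SCAN and BTB groups came from HMMER 3.4 and MAFFT 7.526 profiles (E-value under 0.001), added because a fixed pattern for SCAN matched no further member. Promoters were matched for 136 of 172 members (79.1%), under 80%, so no share over all members is given. Read sharing is the share of 50-base words of the longest transcript that another gene's transcripts hold. Counting error and replicate spread set the precision, and the common coefficient of variation was 2.82%.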

Additional observations from a re-analysis of the deposited data

Results flagged for a closer look

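In 5 of 174 groups of 4 libraries (named members and *Hdac3*), 1 library stood apart from the other 3 by more than Dixon's 95% critical value. Chance flags about 1 group in 20. *Zfp414* had 296 normalised reads in EV replicate 4, below 316 to 320.3 in the other EV libraries. *Zfp335* had 415 in EV replicate 2, above 366 to 374. *Zfp65* had 216 in *Hdac3* KO replicate 1, below 246 to 251. *Zfp217* had 612 in EV replicate 1, below 662 to 672. *Zfp664* had 2937 in EV replicate 1, below 3137 to 3170.4. *Zfp414*, *Zfp335*, *Zfp65* and *Zfp217* passed the threshold without each of these libraries.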

How the results depend on the processing

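The 115 lower members stayed between 107 and 115 in every setting without a fold limit or an exclusion of genes, and the 52 higher members between 45 and 55 except with library totals in place of TMM factors, which left 26 higher. That scaling moved the median of all genes from 0.06 to -0.06, that of the members from -0.32 to -0.44, and the share of higher among all called genes from 48.7% to 39.3%. A further limit of an absolute log2 fold change over 1 left 4 higher and 4 lower members. Leaving out members that share 5% or more of their words, an alternative chosen after seeing the data, left 45 higher and 96 lower. The median of KRAB members was -0.40 with the strict pattern, -0.38 with the looser one and -0.36 by profile, where genes with a SCAN domain were left out. Adjusting for transcript GC content and length, also chosen after seeing the data, gave -0.32 for the members. With library totals alone the values of *Zfp664*, *Zfp91* and *Zfp36l2* reversed, to -0.0639, -0.0593 and -0.0208.

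Replicate numbers did not pair the libraries. The correlation of same-numbered libraries' deviations averaged -0.02 (from -0.11 to 0.12 over 4 pairs), and with the replicate block 52 members were higher and 115 lower. Among 86 named members, 1081 of 1118 values kept direction and side of the threshold, 33 lost the threshold, 1 passed only in DESeq2, and 3 reversed. Members without a listing, members with few reads and paralogues that share reads limit what these counts say of the family.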
